A study of Homo sapiens with 12 samples.

Results

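The response of human astrocytoma cells to manganese was read in the input RNA of an immunoprecipitation study, across every gene that could be tested. U251-MG is an established human glioma line, labelled an astrocyte by the submitters and commonly used in place of cultured astrocytes. The cells were kept in MEM with 2% fetal bovine serum, either alone (control) or with 100 µM manganese, given as the chloride according to the series description. Each condition had 3 input libraries of poly(A) RNA and 3 libraries of RNA pulled down with an antibody against YTHDF2 (IP), a protein that binds N6-methyladenosine (m6A) in mRNA. The comparison described here is that of the 6 input libraries among the 12, in which 14804 of the 36963 genes of the count table had enough counts to be tested. The input was taken from lysate made with NP-40 detergent and cleared by centrifugation, before any antibody was added. The labels state neither the length of exposure nor whether the replicates were separate cultures, so the p-values measure the spread between these libraries, which may be technical.

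Manganese is an essential metal that serves as a cofactor of the mitochondrial superoxide dismutase, of glutamine synthetase and of the glycosyltransferases of the Golgi. In excess it is toxic to the brain, chiefly to the basal ganglia, and astrocytes are a main store of it. Misfolded protein in the endoplasmic reticulum is met by the unfolded protein response, in which the sensors PERK, ATF6 and IRE1 raise chaperones, and by the integrated stress response, in which the transcription factor ATF4 raises genes of amino acid supply. Hypoxia-inducible factor (HIF) is kept low by iron-dependent prolyl hydroxylases, and other divalent metals can compete with that iron.

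The 6 input libraries held 19585869 to 25239710 counts assigned to genes, with 85.4% to 87.12% of fragments aligned. Control replicate 1 and manganese replicate 3 had a count for 14447 and 15460 genes and the other 4 for 17350 to 18249. Replicates of a condition correlated at 0.955 to 0.986 (Pearson, across tested genes, log2 scale), and libraries of different conditions at 0.914 to 0.946. A single gene, PCGF6, took 34.3% to 36.4% of all input counts, and mRNAs encoded by the mitochondrial genome took 2.28% to 2.96% in the control and 3.72% to 4.36% in the manganese libraries. The astrocyte and glioma markers VIM, NES and GFAP were abundant, while the neuronal markers RBFOX3, STMN2 and TH, the microglial markers AIF1, P2RY12, TYROBP and C1QA and the epithelial marker CDH1 had 0 counts in all 6. The lists were mixed, however. The astrocyte marker AQP4 also had 0 counts, and ALDH1L1 had 3 in the control and 3 in the manganese libraries. The neuronal MAP2 and TUBB3 and the epithelial KRT18 had 2348, 1254 and 1609 control counts. Of 7 tested neuron markers MAP2 fell (−1.01 ± 0.24) and of 4 tested epithelial markers none passed. The summed level of the microglia and macrophage list was 4.25 to 8.41 CPM (counts divided by the library's total and its scaling factor, given below) in the control and 40.1 to 43.6 in the manganese libraries, of which nearly all was CD68, a lysosomal membrane protein.

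Manganese was followed by a broad shift that ran more often upward. At an adjusted p of 0.05 (edgeR quasi-likelihood test on all 12 libraries, Benjamini-Hochberg over all tested genes), 2215 genes (15% of those tested) differed, 1678 higher (11.3%) and 537 lower (3.63%) with manganese. Of these, 1343 rose and 226 fell by at least 1 on the log2 scale, that is 9.07% and 1.53% of all tested genes. In 2212 of the 2215 the 3 libraries of 1 condition all lay above the 3 of the other, against 44.8% of all tested genes. When the 6 input libraries were fitted alone, 2400 genes (17.9%) rose and 1866 (13.9%) fell, and these held 1664 of the 1678 and 533 of the 537. Without control IP replicate 3, the library with the fewest aligned fragments (56.88%), 2149 rose and 1064 fell. An IP library enters this comparison through the gene filter, the scaling and the shared estimate of spread. Without manganese IP replicate 3 the lower count was 833, and without control input replicate 1, 2 or 3 it was 319, 286 or 287.

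The balance between higher and lower genes depended on the scaling. The factors of the main scaling (trimmed mean of M values, TMM) were 1.22 to 1.32 in the control and 0.909 to 0.942 in the manganese input libraries, and it put the median log2 change of all genes at −0.04 and 75.8% of the calls on the higher side. Under scaling to total counts the median was −0.49 and 29.96% of 3742 calls were higher, and with the deposited TPM (length-corrected transcript abundances that sum alike in every library) these were −0.28 and 30.5%. Size factors of the DESeq2 type gave 67.9% higher. All changes below are relative to the TMM scaling, and total counts would lower each log2 change by about 0.45.

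**Figure D1:**
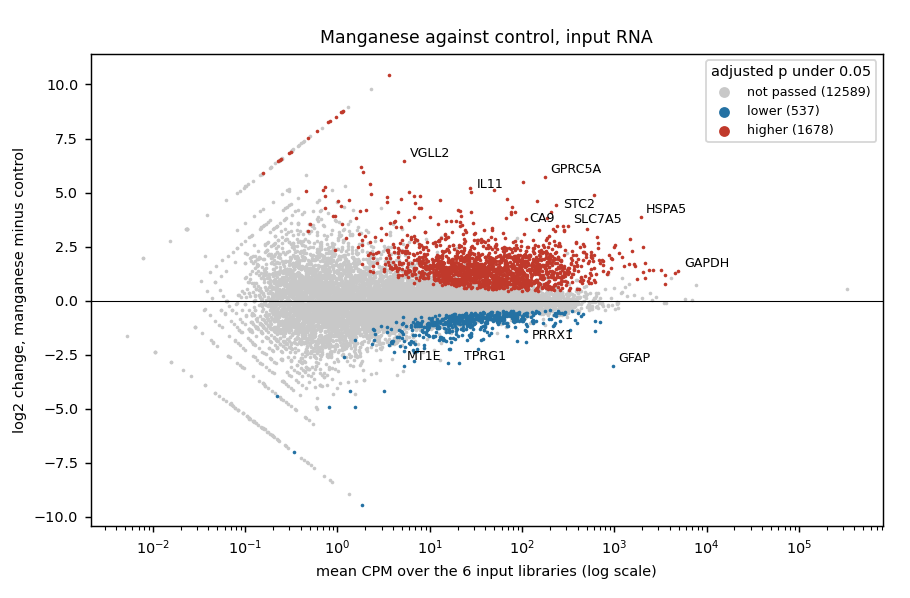
Each point is 1 of the 14804 tested genes, with its mean CPM over the 6 input libraries on a logarithmic axis and its log2 change (manganese minus control) on the vertical axis. Genes that passed the test are coloured by direction (1678 higher, 537 lower), and the strongest named genes are labelled.

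The chaperones of the endoplasmic reticulum rose together. Of 27 tested genes of the chaperone and unfolded protein response list, 22 rose and none fell, with a median log2 change of 2.12 (all tested genes, −0.04). HSPA5, the lumenal Hsp70 chaperone BiP and the usual marker of the response, stood at 319, 223 and 190.0 CPM in the control libraries and 3669, 3335 and 3851 in the manganese libraries, 14.8-fold higher (log2 change 3.89 ± 0.34 SE, adjusted p = 6.79e-06). The groups were far apart, and every manganese library held more than 10 times the highest control value. HSP90B1, the lumenal Hsp90, went from 479, 348 and 252 to 2224, 2526 and 3035 CPM (log2 change 2.85 ± 0.36). HYOU1, an Hsp70-related chaperone, went from 59.8, 55.4 and 48.2 to 481, 508 and 571 CPM (log2 change 3.25 ± 0.15). Both were separated without overlap, as were the secreted stress protein MANF (2.88), the lectin chaperone CALR (2.48), the disulfide isomerases PDIA4 (2.50) and PDIA6 (2.43), CRELD2 (2.42), the degradation factors SEL1L (2.25) and EDEM1 (1.59) and the co-chaperone DNAJC10 (1.60). The stress sensors rose too, with log2 changes of 1.31 ± 0.20 for ATF6 and 2.45 ± 0.22 for EIF2AK3, which encodes PERK. XBP1, whose mRNA is spliced by IRE1, rose from 18.8, 14.3 and 15.4 to 47.5, 40.1 and 43.2 CPM, and splicing was not measured here. HERPUD1, an element of the degradation machinery, was counted at only 0.0837, 0.753 and 1.13 CPM in the control and 1.6, 1.37 and 0 in the manganese libraries and did not pass (adjusted p = 0.9).

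**Figure D2:**
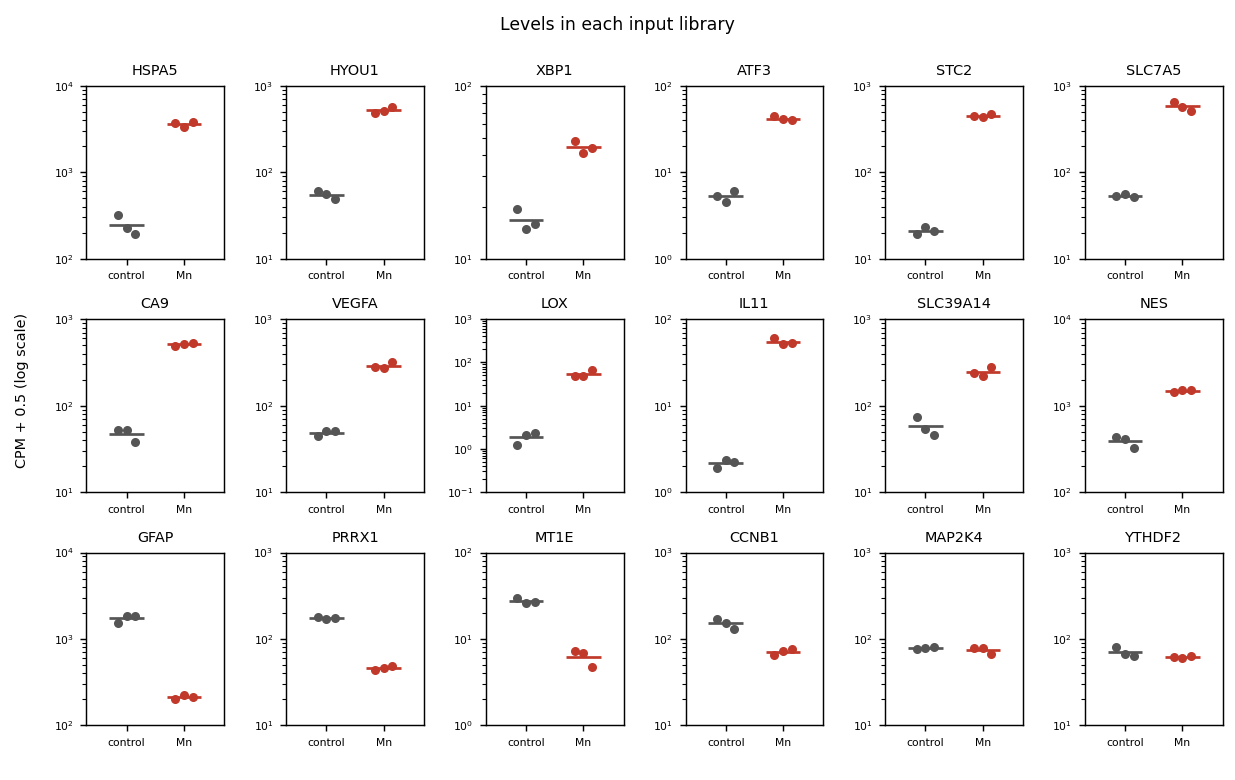
CPM of 18 named genes in each of the 6 input libraries, on logarithmic axes (0.5 CPM added so that low values can be drawn). Each point is 1 library and each bar the mean of 3. HSPA5, STC2, LOX and IL11 sit far higher with manganese, GFAP, PRRX1 and MT1E lower, and MAP2K4 and YTHDF2 overlap between the groups.

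A part of the promoters of the chaperone genes share a short sequence, shown here because it is the textbook binding site of ATF6 with NF-Y. This endoplasmic reticulum stress element (ERSE) reads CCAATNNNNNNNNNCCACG, and was searched on both strands in the 250 bases before to 50 after each gene's start (RefSeq, GRCh38.p14; the counts themselves were made on hg19). It was present in 27 of 35116 promoters (0.0769%) and in 8 of the 24 chaperone genes with a promoter sequence, and all 8 rose. Among all tested genes, 16 held it, of which 9 rose and none fell, beside 12.5% risen among the 10283 tested genes with a promoter. Of these 9, 8 were the chaperone genes just counted, from a list seen to rise before the motif was chosen. The contrast with 12.5% is therefore a description and not a test. The ninth, and the only riser outside that list, was FICD, which modifies BiP (2.01). ERO1B, an oxidase of the endoplasmic reticulum and 1 of the 8, rose by 1.51. HSP90B1 holds the element in 2 places, of which 1 is shown. CRELD2 shares its element with the divergent gene ALG12, which did not pass (0.71 ± 0.31), and neither of the divergent genes SERP1 and EIF2A, which share another, passed (0.16 and −0.05). In the windows below the element or its reverse complement is in capitals, and each is 30 bases long, read 5′ to 3′ on the strand of the gene.
HSPA5 (chr9:125241385-125241414, minus strand): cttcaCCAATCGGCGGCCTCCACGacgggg
HSP90B1 (chr12:103930211-103930240, plus strand): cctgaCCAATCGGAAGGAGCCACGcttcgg
CALR (chr19:12938379-12938408, plus strand): ccacgCGTGGTCGACCATCATTGGtcggtg
CANX (chr5:179698773-179698802, plus strand): cccggCCAATCTTCACACTCCACGaagaat
CRELD2 (chr22:49918549-49918578, plus strand): cctctCGTGGCGAACTCGGATTGGgccata
PDIA6 (chr2:10812847-10812876, minus strand): ccggaCCAATGAGCCGCAGCCACGgcttgg
XBP1 (chr22:28800597-28800626, minus strand): gctggCCAATCGCGGAGGGCCACGaccgta
ERO1B (chr1:236282177-236282206, minus strand): gcccgCGTGGTCCCGCCTCATTGGccgccg
FICD (chr12:108515118-108515147, plus strand): aacaaCCAATGGGAGTGGCCCACGgcgcgt

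The related ERSE-II, ATTGGNCCACG, was found in 19 promoters (0.0541%), among them those of HYOU1 and SDF2L1, which rose (3.25 and 1.52), and that of HERPUD1, which did not pass. Of the 13 tested genes that held ERSE-II, only 3 rose and none fell. HYOU1 holds it at both of the places shown, with the element's reverse complement in capitals.
HYOU1, nearer the start (chr11:119057264-119057293, minus strand): ggcctgggaCGTGGTCCAATgagtacgcgc
HYOU1, farther (chr11:119057370-119057399, minus strand): gccccgtgaCGTGGTCCAATcccaggccga
A match of letters is a description of the promoter and not evidence that a factor bound there.

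Genes of the integrated stress response and of amino acid supply rose as well. Of 22 tested genes of the ATF4 list, 17 rose and 1 fell, with a median of 1.90. ATF4 itself, whose control is mainly translational, went from 84.1, 121 and 126 to 282, 262 and 231 CPM (log2 change 1.22 ± 0.22). Its partner and target ATF3 went from 4.85, 4.05 and 5.59 to 43.9, 40.5 and 39.4 CPM (3.09 ± 0.33), and the groups did not overlap for either. STC2, a secreted glycoprotein, went from 19.0, 22.5 and 20.3 to 445, 429 and 467 CPM, the steepest rise of the list (4.44 ± 0.33, adjusted p = 1.48e-06). The pseudokinase TRIB3 (1.96), the glutathione-degrading enzyme CHAC1 (2.30), the mTORC1 inhibitors SESN2 (2.72) and DDIT4 (2.38), the eIF2α phosphatase subunit PPP1R15A (1.94), asparagine synthetase ASNS (1.82) and the pro-apoptotic factor DDIT3, or CHOP (1.26), all rose. EIF2AK4, the kinase GCN2 that senses uncharged tRNA, was the 1 that fell (−0.64 ± 0.14).

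Of 21 amino acid transporters tested, 13 rose and none fell (median 1.41). SLC7A5, the light chain of the large neutral amino acid exchanger, went from 53.2, 55.8 and 50.6 to 654, 569 and 512 CPM, and its heavy chain SLC3A2 from 7.95, 13.1 and 10.8 to 75.8, 76.8 and 73.4 CPM. The glutamine carrier SLC1A5 went from 39.8, 41.8 and 37.6 to 493, 415 and 412 CPM. These were 10.9-fold, 7.09-fold and 11.1-fold higher with no overlap, and the glycine carrier SLC6A9 (3.04), the neutral carrier SLC1A4 (2.80), the cationic carrier SLC7A1 (2.49) and the cystine exchanger SLC7A11 (1.41) rose too. Among the 19 cytosolic aminoacyl-tRNA synthetases tested, 10 rose and none fell (median 0.70), led by GARS (1.52), WARS (1.38), CARS (1.37) and MARS (1.23), while LARS was at 146, 126 and 116 and 148, 136 and 138 CPM and overlapped. The count of risen synthetases was 6 without control input replicate 2 or 3 or manganese input replicate 1 or 2, and 5 under total counts. Of 19 genes of serine, one-carbon and proline synthesis, 5 rose (median 0.46): PHGDH (1.37), PSAT1 (1.25) and PSPH (0.81), the 3 steps of serine synthesis, with MTHFD2 (1.15) and ALDH18A1 (1.52). Without control IP replicate 3, 8 of them rose.

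The CARE motif TGATGNAA, the core to which ATF4 binds with a C/EBP partner, was found in 3.62% of all promoters, in 3 of 18 genes of the ATF4 list and in 6 of 18 amino acid transporters, of which 3 and 5 rose. Of the 310 tested genes that held it, 47 rose and 13 fell, beside the 12.5% of tested genes with a promoter that rose. Windows of ASNS, where the element was first described as an amino acid response element, of CHAC1 and of SLC1A5 show it or its reverse complement in capitals.
ASNS (chr7:97872458-97872487, minus strand): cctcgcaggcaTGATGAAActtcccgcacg
CHAC1 (chr15:40953251-40953280, plus strand): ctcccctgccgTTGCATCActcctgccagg
SLC1A5 (chr19:46784893-46784922, minus strand): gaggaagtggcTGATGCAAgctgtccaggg

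Targets of hypoxia-inducible factor had the highest median of the 38 gene lists examined. Of 35 genes, all tested, 28 rose and none fell, with a median of 2.59. CA9, the carbonic anhydrase used as a marker of HIF activity, went from 51.8, 51.0 and 37.8 to 490.3, 522 and 533 CPM (log2 change 3.46 ± 0.28, adjusted p = 3.11e-06). VEGFA, the endothelial growth factor, went from 44.3, 50.2 and 49.9 to 277, 272 and 322 CPM (2.59 ± 0.23), and the glucose transporter SLC2A1 from 50.3, 49.6 and 34.8 to 431, 409 and 399.8 CPM. In each of these the lowest manganese library exceeded the highest control library by more than 5 times. Steeper still were the collagen cross-linking oxidase LOX, from 0.711, 1.63 and 1.88 to 47.2, 48.1 and 65.7 CPM, and the collagen prolyl hydroxylase P4HA2, from 15.3, 10.6 and 8.22 to 256, 276 and 306 CPM. The peptide hormone ADM (4.32), the lipid droplet protein HILPDA (4.10), the matrix oxidase LOXL2 (3.22), the glucose transporter SLC2A3 (2.99) and the HIF hydroxylase EGLN3 (1.24) rose also. Most of the risers named here encode secreted or membrane proteins, of the kind that rose widely (41.0% in the families given below). This list was not split by the place of the protein, and the part of that place in its high median was not tested. HIF1A, the oxygen-labile subunit, whose control is mainly at the level of the protein, was at 1310.2, 1108 and 1038 CPM in the control and 836, 872 and 899 in the manganese libraries. Its log2 change was −0.41 ± 0.16 (adjusted p = 0.127, not passed), although the groups did not overlap and it passed when the 6 input libraries were fitted alone (adjusted p = 0.00645).

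Of 18 genes of glycolysis and lactate export, 9 rose and none fell (median 0.84). GAPDH, often used as a reference gene, went from 2525, 2929 and 2783 to 7191, 7482 and 6868 CPM, 2.62-fold higher, and the neuronal enolase ENO2 from 59.5, 82.5 and 70.6 to 451, 451 and 414 CPM. PGK1 (1.40), PFKP (1.16), TPI1 (0.87) and ENO1 (0.76) rose by smaller amounts. The letters ACGTG, the core to which HIF binds, stood in 17 of the 27 promoters of the HIF list that had a sequence (63.0%) and in 31.8% of those of all tested genes. They were not particular to the HIF list, with shares of 72.2% in amino acid transporters, 64.7% in glycolytic enzymes and 24% in collagens and collagen-modifying enzymes. Of the tested genes with the letters 441 of 3274 rose, beside 12.5% of all tested genes with a promoter.

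Genes of the extracellular matrix and of the lysosome rose widely. Of 33 collagens and collagen-modifying enzymes, 25 rose and none fell (median 1.84), of 34 matrix glycoproteins and proteases 24 rose (median 1.87), and of 18 integrin subunits 9 (median 1.54). Fibronectin, FN1, went from 21.2, 28.3 and 23.6 to 305, 329 and 400.2 CPM (3.82 ± 0.25). The basement membrane collagen COL4A1 went from 10.8, 11.3 and 9.81 to 82.3, 79.7 and 82.9 CPM (2.94 ± 0.19), and the fibronectin receptor subunit ITGA5 from 12.8, 17.8 and 15.2 to 184, 204 and 231 CPM (3.76 ± 0.20). THBS2 (4.09), the tissue plasminogen activator PLAT (3.84), TGFBI (3.33), the lysyl hydroxylase PLOD2 (2.95) and the collagen chaperone SERPINH1 (2.17) showed the same direction without overlap. Of 32 lysosomal genes 27 rose and none fell (median 1.65). The cholesterol exporter NPC1 went from 2.72, 3.48 and 4.44 to 26.6, 21.4 and 30.5 CPM.

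The rises were unevenly spread between genes for proteins of the secretory pathway and genes for other proteins. The lysosome list was split by hand into proteins with and without a signal sequence or membrane span. All 27 genes for lumenal or membrane proteins rose, while none of the 5 for cytosolic or nuclear ones passed (TFEB, ATP6V0D1, ATP6V1A, ATP6V1B2 and ATP6V1H, with a median of −0.11). Of the V-ATPase, the proton pump, 5 of 10 membrane and accessory subunits rose and none of 12 subunits of its cytosolic V1 sector, the 5 becoming 3 without control input replicate 2 or 3. Of the solute carriers of other membranes 66 of 165 rose, and of the SLC25 carriers of the mitochondrion 1 of 38. Among genes of cholesterol and fatty acid synthesis, 6 of 23 for endoplasmic reticulum membrane or secretory-pathway proteins rose and none fell (median 0.55), and of the 8 for cytosolic ones none rose and IDI1 fell (median −0.60; under total counts the 2 medians were 0.10 and −1.04). Over 11 families of secreted and membrane proteins, 194 of 473 tested genes rose (41.0%) and 3 fell, with family medians from 0.52 (protocadherins and cadherins) to 2.05 (protein disulfide isomerases). Over 12 families of cytosolic, nuclear or mitochondrial proteins, 12 of 792 rose (1.52%) and 41 fell, with medians from −0.35 (ZNF zinc finger proteins) to 0.08 (proteasome subunits, −0.37 under total counts). Leaving out 1 library moved the count of secretory families to between 145 and 227. For the cytosolic families the lower count was 16 to 23 without any one of the input libraries, 67 without manganese IP replicate 3 and 94 without control IP replicate 3, and the higher count 7 without any one of the manganese inputs and 25 without control IP replicate 3. Under total counts the secretory families had 149 higher and the cytosolic ones 245 lower. These families, and the splits within lists, were chosen after the values had been seen and are given as a description. The input was RNA of a cleared detergent lysate, how much membrane-bound mRNA that lysate held was not measured, and its part in the result was not tested.

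**Figure D3:**
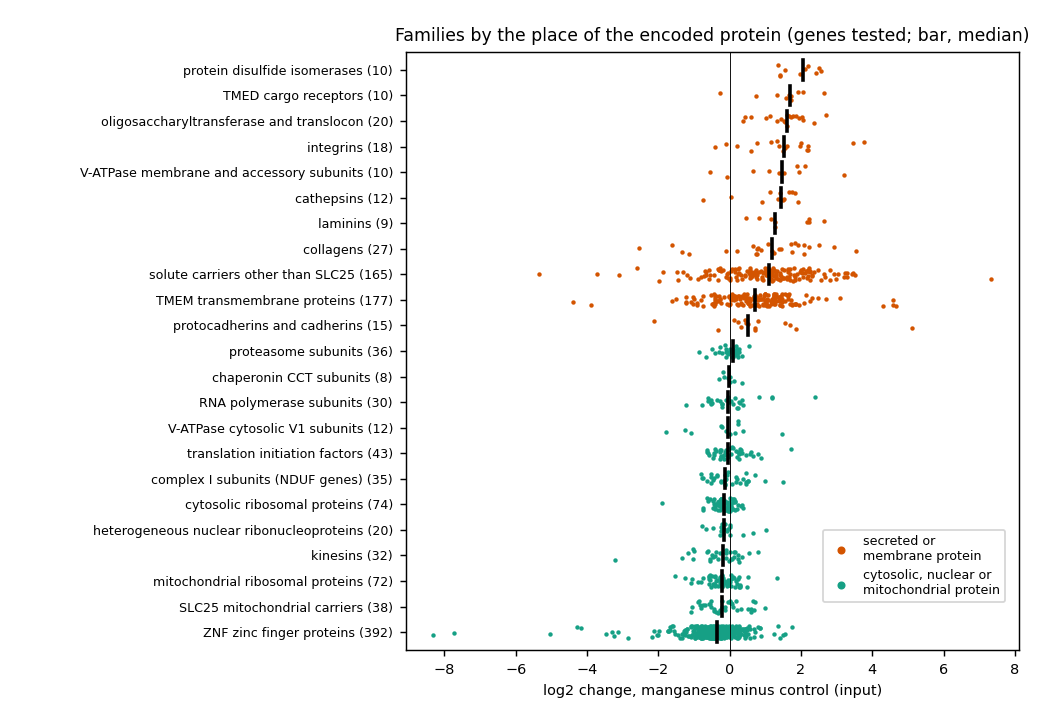
Log2 change (manganese minus control, input) of every tested gene of 23 families, with the median as a bar. The 11 families of secreted and membrane proteins have medians of 0.52 to 2.05, and the 12 families of cytosolic, nuclear or mitochondrial proteins have medians between −0.35 and 0.08, under the main scaling.

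Among genes that move manganese, 7 of 10 tested rose and 1 fell (median 1.94). SLC39A14, the importer ZIP14, went from 73.0, 53.3 and 45.7 to 237, 221 and 281 CPM (2.10 ± 0.22), and SLC39A8, the importer ZIP8, from 7.87, 6.94 and 5.72 to 21.7, 22.6 and 29.5 CPM (1.85 ± 0.41). ATP2C1, the Golgi pump for calcium and manganese, went from 55.1, 48.4 and 36.0 to 179, 189 and 231 CPM (2.10 ± 0.22). The importers and the pump thus all lay higher in every manganese library. ATP13A2, a lysosomal transporter mutated in a form of parkinsonism (2.09), the endoplasmic reticulum P5A ATPase ATP13A1 (2.03), the Golgi protein TMEM165 (1.02) and the transferrin receptor TFRC (2.07) rose. With the 6 input libraries left out in turn, the call of TFRC was lost 5 times and that of TMEM165 2 times. Leaving out 1 library gave 5 to 8 risen genes of this list. The iron exporter ferroportin, SLC40A1, fell from 32.5, 26.2 and 26.4 to 11.7, 13.1 and 9.61 CPM (−1.31 ± 0.22). SLC30A10, the manganese exporter of liver and brain, had 6 counts in all in the control and 3 in the manganese libraries and was not tested. All of these encode membrane proteins, of the kind that rose widely.

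None of the 5 tested metallothioneins, small cysteine-rich proteins that bind zinc and copper, rose in the input. MT1E went from 29.3, 25.7 and 26.3 to 6.72, 6.31 and 4.25 CPM and fell (−2.23 ± 0.28), as did MT1F (−2.25 ± 0.41). MT2A, the most abundant, was at 73.7, 106 and 132 CPM in the control and 72.9, 85.1 and 40.3 in the manganese libraries and did not pass (−0.65 ± 0.31, adjusted p = 0.203). MT1X (0.91 ± 0.43) and MT3 (2.34 ± 0.85) did not pass either, while MT1G had 0 counts in the control and 2 in the manganese libraries and MT1A, MT1B, MT1H and MT1M had none. The MT1 and MT2 genes are near-identical copies, between which counting may split reads, so their single values are uncertain. In the wider list of metallothioneins and zinc response, 7 of 20 rose and MT1E and MT1F fell, and the risers included the zinc carriers SLC39A10 (1.48), SLC39A7 (1.21) and SLC30A7 (1.12). The zinc exporter SLC30A1, a target of the metal-sensing factor MTF1, was at 31.8, 29.8 and 30.8 and 20.4, 21.1 and 34.2 CPM and did not pass. Of 21 iron genes 3 rose (14.3%, near the 11.3% of all tested genes) and 2 fell (9.52%, beside 3.63%). Among the risers HMOX1 (heme oxygenase 1) went from 10.3, 10.5 and 11.8 to 53.7, 47.6 and 45.3 CPM. Just 1 iron gene rose without control input replicate 2 or 3 or any one of the manganese inputs, and 7 without control IP replicate 3. Of 13 manganese-dependent enzymes, XYLT2 (1.88), B4GALT1 (0.73) and ARG2 (2.12) rose and GLUL fell, and 5 rose without control IP replicate 3. SOD2, the manganese superoxide dismutase, was at 204, 207 and 217 and 273, 261 and 257 CPM (0.33 ± 0.14, adjusted p = 0.141), with no overlap but short of the threshold; it passed with the 6 input libraries alone (adjusted p = 0.0163), and under total counts its sign turned.

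Genes of oxidative and heat stress moved little as groups. Over all tested genes 11.3% rose and 3.63% fell. Of 27 targets of NRF2, the regulator of the antioxidant response, 6 rose (22.2%) and 1 fell (3.70%), with a median of 0.17 (−0.27 under total counts). The risers were HMOX1 (2.17), SLC7A11, ABCC3 (1.32), ABCC1 (1.42), MAFG (0.64) and EPHX1 (1.13), with AKR1C1 lower (−1.37). Of these, SLC7A11, ABCC3, ABCC1 and EPHX1 encode membrane proteins, and the calls of ABCC1 and AKR1C1 were lost whichever input library was left out. The count of risen targets was 3 without control input replicate 2 or any one of the manganese inputs. Of 20 antioxidant enzymes 3 rose (15%) and 1 fell (5%), both near the shares of all tested genes. The risers were PRDX4 of the endoplasmic reticulum (2.23), GPX8 of its membrane (0.76) and cytosolic GLRX (1.81), and catalase, CAT, fell (−0.74). Without control input replicate 3, 1 gene of this list rose. Of 25 cytosolic heat shock chaperones 4 rose (16%), by at most 0.61 (DNAJB1, BAG3, HSPA4L and HSPB8). Only HSPH1 fell (−0.95), which is 4% of the list. None rose without control input replicate 1 or 2 or manganese input replicate 1 or 2, 1 without control input replicate 3, and 2 without control IP replicate 2 or any one of the manganese IPs, while 4 fell without control IP replicate 3. Under total counts none rose and 9 fell.

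**Figure D4:**
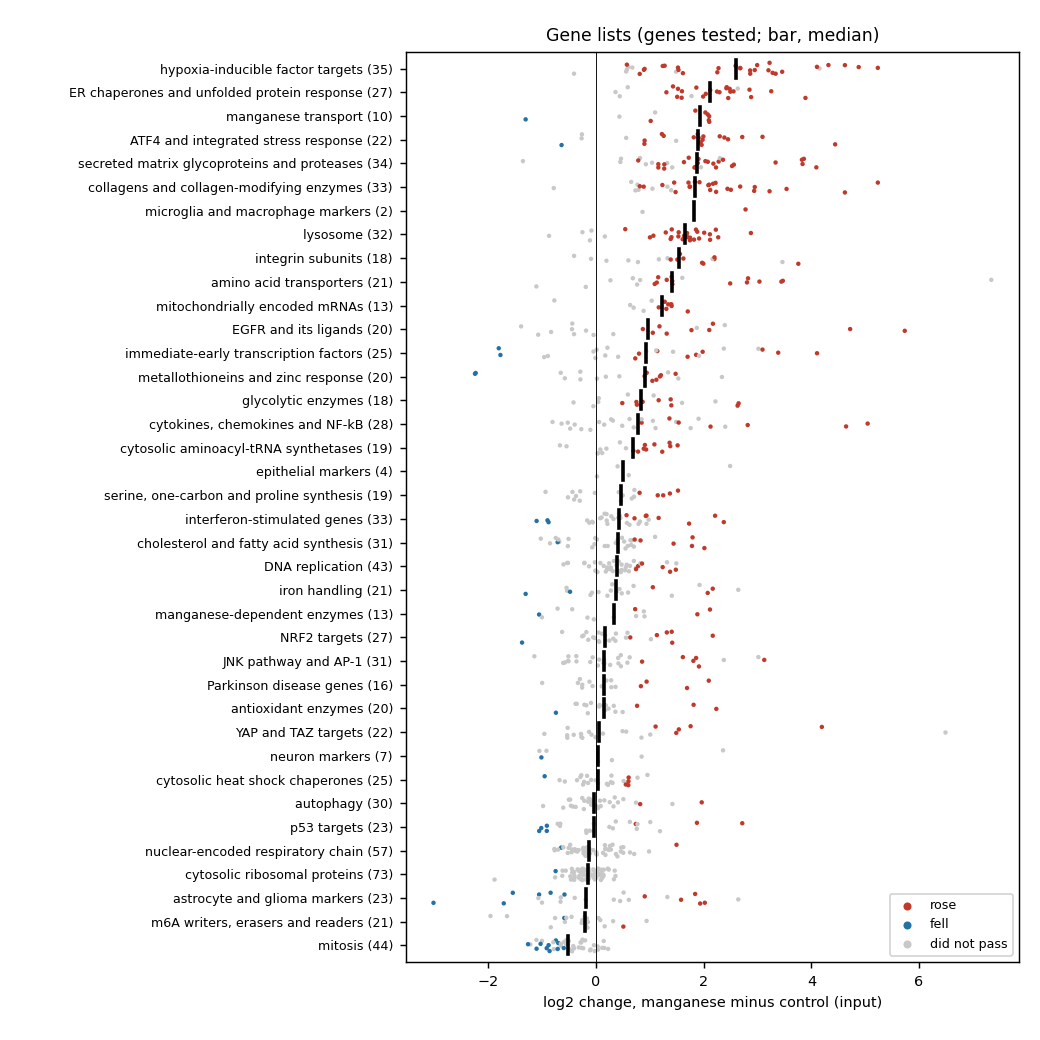
Log2 change of every tested gene of the 38 gene lists, sorted by median, with points coloured where the gene passed and the median drawn as a bar. The HIF target, chaperone and manganese transport lists lie highest and the mitosis list lowest. Medians between 0 and 0.45 change sign under total-count scaling.

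The study asked about inflammatory signalling through JNK, and several secreted signals rose. Of 28 tested cytokine, chemokine and NF-κB genes 7 rose and none fell (median 0.77). IL11, a cytokine of the IL-6 family, went from 1.38, 1.82 and 1.72 to 59.8, 51.5 and 52.3 CPM (5.04 ± 0.29, adjusted p = 2.76e-07), and the neutrophil chemokine CXCL8 from 0.628, 0.879 and 1.41 to 25.4, 28.3 and 20.1 CPM (4.64 ± 0.51). LIF went from 19.6, 25.5 and 26.6 to 105, 114 and 94.2 CPM (2.13 ± 0.27). IL1A (2.82), ICAM1 (1.54), TRAF1 (1.36) and IL18 (0.85) also rose. The list had 3 or 4 risen genes without control input replicate 2 or 3, any one of the manganese inputs or manganese IP replicate 1, and any input library left out cost the calls of ICAM1 and IL18. IL6 was at 5.06, 4.43 and 3.56 and 4.18, 6.17 and 5.51 CPM and overlapped, and CCL2 was at 49.7, 53.4 and 39 and 26.0, 26.0 and 29.2 CPM (adjusted p = 0.112, lower in every manganese library). Of 33 interferon-stimulated genes 8 rose and 3 fell, with PARP9 (−1.10), PARP14 (−0.88) and STAT2 (−0.90) lower and IFI6 (1.73) and OAS1 (0.94) higher. The count of risen interferon genes was 1 to 4 without any one of the input libraries or manganese IP replicate 1 or 2, and 1 under total counts.

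The central kinases of the JNK cascade did not pass the test in the input. MAP2K4, the kinase SEK1 named in the study's title, was at 75.2, 77.4 and 80.2 CPM in the control and 77.8, 79.1 and 66.1 in the manganese libraries (−0.06 ± 0.18, adjusted p = 0.898). MAPK8 (−0.37 ± 0.20) and MAPK9 (−0.11 ± 0.20), which encode JNK1 and JNK2, did not pass. The target transcription factor JUN was at 123, 121 and 125 and 176, 164 and 150.0 CPM, higher in every manganese library but short of the threshold (0.41 ± 0.18, adjusted p = 0.163, and 0.0081 with the 6 input libraries alone), and of the opposite sign under total counts. Of the 31 genes of the JNK and AP-1 list, 6 rose (19.4%, beside 11.3% of all tested genes) and none fell. Under total counts 4 rose and 3 fell. The 6 were FOS (1.86), FOSL1 (1.61) and JUND (1.81) of the AP-1 factors, the kinase phosphatases DUSP1 (3.12) and DUSP10 (1.91), and the upstream kinase MAP3K9 (0.86). The call of MAP3K9 was lost whichever input library was left out, and that of FOSL1 in 5 of the 6 removals. DUSP1, which dephosphorylates JNK and p38, went from 13.3, 12.3 and 12.4 to 118, 111 and 102 CPM, 8.72-fold higher with no overlap. YTHDF2 itself was at 80.3, 66.7 and 62.7 and 60.9, 60.1 and 62.8 CPM (−0.19 ± 0.15, adjusted p = 0.534). Of 21 m6A writers, erasers and readers, the demethylase ALKBH5 rose (0.51) and the reader YTHDC2 fell (−0.59). Each is 4.76% of the list, beside 11.3% higher and 3.63% lower over all tested genes. The call of ALKBH5 was lost without any one of the input libraries other than manganese input replicate 3, and that of YTHDC2 without control input replicate 1 or 2 or manganese input replicate 1 or 2. In the list 4 genes fell without control IP replicate 3, and under total counts none rose and 9 fell.

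Growth factor and immediate-early genes formed another group of strong changes. Of 20 genes of EGFR, its ligands and its targets 9 rose and none fell (median 0.96). GPRC5A, an orphan receptor, went from 9.42, 5.24 and 5.09 to 342, 327 and 378 CPM, and the EGFR ligand HBEGF from 2.64, 5.87 and 6.56 to 137, 133 and 129 CPM. EGFR itself went from 16.9, 19.3 and 12.4 to 73.7, 60.7 and 74.5 CPM (2.10 ± 0.49). With no overlap in any of the 3, these were 53-fold, 26.5-fold and 4.3-fold higher. Of 25 immediate-early transcription factors 9 rose and 2 fell, with KLF4 (4.10), MAFF (1.98), EGR2 (1.70) and EGR1 (1.14) higher and the inhibitors of differentiation ID1 (−1.81) and ID2 (−1.77) lower. Of 22 YAP and TAZ targets 5 rose, IGFBP3 (4.19) the most, and 3 or 8 without control input replicate 3 or control IP replicate 3. Of 23 p53 targets 3 rose (13.0%, near the 11.3% of all tested genes), among them the death receptor TNFRSF10B (1.87) and SESN2. A further 4 fell (17.4%, beside 3.63% of all tested genes), and 5 rose without control IP replicate 3.

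The astrocyte markers moved apart. Of 23 tested astrocyte and glioma markers 5 rose and 6 fell, or 10 without control IP replicate 3. GFAP, the intermediate filament that defines astrocytes, was at 1517, 1835 and 1850.3 CPM in the control and 204, 227 and 212 in the manganese libraries, 8.09-fold lower (−3.02 ± 0.20, adjusted p = 6.2e-07). S100B, a calcium-binding astrocyte protein, went from 16.4, 25.8 and 21.2 to 7.99, 8.0 and 3.33 CPM (−1.71 ± 0.36). Glutamine synthetase, GLUL, which converts glutamate taken up by astrocytes and binds manganese, went from 228, 225 and 223 to 101, 107 and 118 CPM (−1.06 ± 0.18). In these 3 genes all manganese libraries lay below all controls, and the gliogenic factors SOX9 (−0.58), NFIA (−1.54) and NFIB (−0.84) fell too, NFIA only with all 6 input libraries in the fit. NES, the intermediate filament of neural precursors, went from 435, 409 and 322 to 1455, 1509 and 1495 CPM (1.93 ± 0.18), and the hyaluronan receptor CD44 (1.58), the gap junction protein GJA1 (1.84), SERPINA3 (2.02), a marker of reactive astrocytes, and the secreted lectin CHI3L1 (0.91) rose as well. VIM, an intermediate filament of astrocytes and precursors alike, was at 2225, 2255 and 2060.1 and 2636, 2823 and 2770.2 CPM and did not pass (0.33 ± 0.16), although it passed with the 6 input libraries alone (adjusted p = 0.00643) and was negative under total counts.

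Some genes of mitosis were lower, and a few of DNA replication higher. Of 44 mitotic genes 10 fell and none rose (median −0.51), and with the 6 input libraries alone 26 fell. The count was 6 without control input replicate 1, 16 without control IP replicate 1 and 17 without control or manganese IP replicate 3. Cyclin B1, CCNB1, went from 171, 154 and 131 to 65.2, 71.5 and 75.8 CPM (−1.10 ± 0.21), and the centromere proteins CENPF and CENPE fell by 0.91 and 1.26 on the log2 scale. AURKA (−0.88), BIRC5 (−0.86), KIF14 (−1.03) and CDC20 (−0.74) fell with them. Of 43 replication genes 6 rose (13.95%, near the 11.3% of all tested genes) and none fell (median 0.38), while under total counts 2 rose and 3 fell (median −0.07). The licensing factor CDC6 went from 31.1, 25.6 and 25.2 to 71.6, 74.2 and 66.5 CPM and the ribonucleotide reductase subunit RRM2 from 149, 123 and 118 to 304, 298 and 317 CPM, while CDT1 (1.48), E2F1 (0.86), FEN1 (0.78) and CHAF1A (0.74) were the others. Without control input replicate 2 or any one of the manganese inputs 2 or 3 rose, without control IP replicate 3 10 rose, and FEN1 passed only with all 6 input libraries.

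Several housekeeping groups lay near the median of all genes. Of 73 cytosolic ribosomal protein genes RPL4 alone passed, lower (median −0.16), a call lost without any one of the input libraries other than control input replicate 1. With the 6 input libraries alone 24 fell, where 13.9% of all tested genes were lower, and under total counts 23. Of 57 nuclear genes of the respiratory chain NDUFB8 rose and NDUFB5 fell (median −0.14). Without control IP replicate 3, 9 ribosomal protein genes fell, and 5 respiratory chain genes rose and 9 fell, and without control IP replicate 1 or manganese IP replicate 1 or 3, 3 ribosomal protein genes fell. By contrast 7 of the 13 mRNAs encoded by the mitochondrial genome rose and none fell (median 1.23), MT-ND1 from 942, 714 and 640.4 to 2636, 2343 and 2503 CPM. Their count was 2 without control input replicate 2 or 3, 4 without manganese input replicate 1 and 12 without control IP replicate 1 or 3. Of 30 autophagy genes ATG9A (1.96) and SQSTM1 (0.82) rose (6.67%, below the 11.3% of all tested genes). Of 16 Parkinson disease genes 4 rose (25%), among them ATP13A2, VPS35 (0.83) and VPS13C (0.94). Of 31 genes of cholesterol and fatty acid synthesis 6 rose (19.4%, beside 11.3% of all tested genes) and IDI1 fell (−0.71). Among the risers were the desaturase SCD (2.01), the sterol enzymes EBP (1.79), DHCR7 (1.78) and CYP51A1 (0.83) and the SREBP escort SCAP (1.44). The calls of DHCR7 and IDI1 were lost whichever input library was left out. In this list 10 rose without control IP replicate 3, and under total counts 3 rose and 4 fell.

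Ranked by size among genes of at least 5 CPM, the largest rises included those of VGLL2, GPRC5A, LOX, PCDH1, IL11, C3AR1, TM4SF19, RAET1L, HBEGF, CXCL8, P4HA2, SLCO4A1, STC2 and ADM. VGLL2, a cofactor of TEAD factors, had 0.126, 0 and 0.219 CPM in the control and 12.6, 12.1 and 6.76 in the manganese libraries. PCDH1, a protocadherin, went from 0.963, 3.61 and 3.56 to 107, 95.1 and 86.0 CPM. Most of these encode secreted or membrane proteins, and VGLL2 is the exception known to be nuclear. The largest falls were those of DNAJC15, GFAP, TPRG1, EHF, SPTLC3, TSHZ2, SPAAR, RTL3, FAM187A, PLEKHS1, MT1F, MT1E, PER3, KCNK2 and CTNNA2. DNAJC15, a co-chaperone of the mitochondrial inner membrane, went from 9.46, 10.4 and 8.53 to 1.55, 1.14 and 0.725 CPM, and the epithelial ETS factor EHF from 35.1, 23.7 and 24.1 to 3.81, 5.17 and 2.27 CPM. The clock gene PER3 went from 25.9, 28.4 and 25.8 to 4.89, 5.58 and 6.67 CPM, 4.68-fold lower. Apart from these, 15 genes rose and 2 fell with no count in 1 condition. SLAMF9, a membrane receptor, had 0 control and 460 manganese counts, the protease inhibitor SPINK1 0 and 143, and the calcium channel CACNA1G 0 and 102. CGB8, a copy of the chorionic gonadotropin beta gene, had 0 and 140, and its near-identical copies make that value uncertain.

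The IP libraries were made from the rest of the same lysates, so the cultures are shared and only the RNA preparation and sequencing are separate. Which input and which IP shared a lysate was taken from their numbers. A change in the IP also reflects what the antibody pulled down. In the IP libraries 3020 genes rose (20.4%) and 3330 fell (22.5%) with manganese. Of the 1678 genes higher in the input 1171 were also higher in the IP (69.8% of the input list, 38.8% of the IP list) and 51 were lower. Of the 537 lower in the input 436 were also lower (81.2% and 13.1%) and 11 were higher. HSPA5 changed by 3.89 in the input and 3.91 in the pull-down, and STC2 by 4.44 and 4.41. For both the change did not differ detectably between the kinds of library, with interaction estimates (input minus IP) of −0.02 ± 0.43 and 0.03 ± 0.40 in a fit that treats the 12 libraries as independent, and of −0.10 ± 0.26 and −0.11 ± 0.38 with the lysate as a block (chosen after seeing the data). GFAP fell more in the input (−3.02) than in the IP (−1.41; difference −1.61 ± 0.26, adjusted p = 0.00198). The metallothionein MT2A, short of the threshold in the input, rose in the IP by 1.49 (difference −2.15 ± 0.44, adjusted p = 0.00606). MAP2K4, short of the threshold in the input, fell in the IP, with a log2 change of −1.55 (difference 1.48 ± 0.25, adjusted p = 0.00245).

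**Figure D5:**
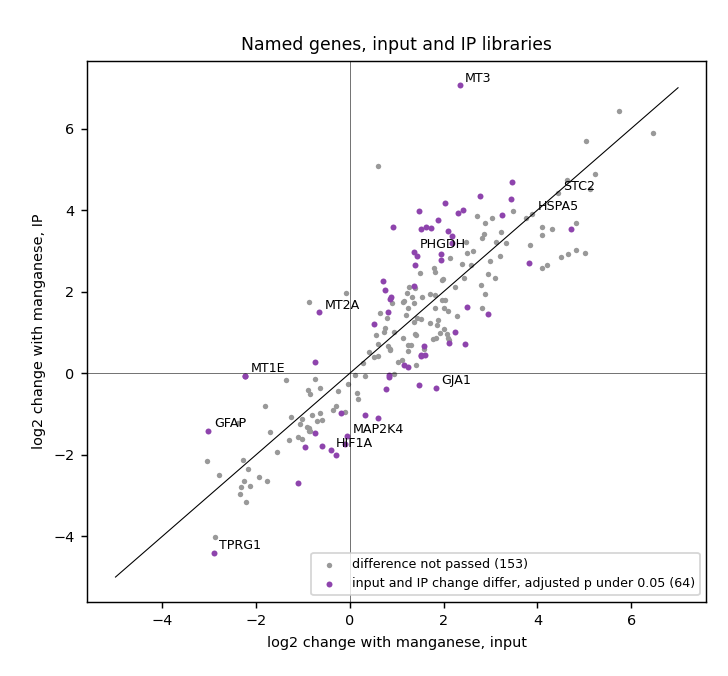
Log2 change with manganese in the input (horizontal) and in the IP (vertical) for the named genes, 1 point a gene, with the diagonal drawn. HSPA5 and STC2 lie on the diagonal, GFAP and MT2A above it and MAP2K4 below it.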

How the data were processed

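The libraries were stranded poly(A) RNA libraries read as pairs, per the labels' protocols. Reads were quantified with kallisto on hg19, per the submitters' processing notes; its version and the annotation are not given in the sources used here. The authors deposited estimated counts per gene, rounded to whole numbers, which were used as they stand, along with TPM per gene and, per library, the fragment count and the percent aligned. Kallisto shares reads between near-identical copies by estimate, so such genes are uncertain. The 2 transcript tables were not used, since they do not pair transcripts with genes. Symbols came from the authors' annotated table (35185 genes) or RefSeq (27), and 1751 genes had none. Of 1063 symbols in the 38 lists 1053 matched.

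Genes were kept by filterByExpr (10 counts; 15 in total), scaled by TMM and tested with edgeR 4.0.16 (R 4.3.3), quasi-likelihood, 1 mean for each of the 4 groups, with Benjamini-Hochberg adjustment. The 8 residual degrees of freedom come from all 12 libraries. SE is that of the log2 change. CPM are TMM-scaled. The script was first tested on simulated data. Alternatives were other scalings and filters, the 6 input libraries alone, limma 3.58.1 (voom, or log2(TPM + 1)), DESeq2 1.42.0, a replicate block and each library left out.

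Named genes were the 15 largest changes in each direction among called genes of at least 5 CPM whose groups did not overlap, up to 6 genes with no count in 1 condition, for each list its 8 lowest p-values, and the metallothioneins and a few genes of the study's question. A few genes that meet this rule are not reported here. Other genes were named for their role after their values had been seen. The comparison and the lists were chosen with earlier results of these data known, and the families, the division by protein location and the motifs after seeing the values. Counts measure fragments, not independent molecules.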

Additional observations from a re-analysis of the deposited data

Results flagged for a closer look

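The change with manganese differed between input and IP libraries (interaction test, edgeR adjusted p under 0.05) in 64 of the 221 named genes, beside 2531 of all tested genes (17.1%). The fit treats the 12 libraries as independent, although inputs and IPs share lysates. With the lysate as a replicate block (chosen after seeing the data) 57 of the 64 passed, CAT, CDT1, E2F1, HBEGF, HYOU1, MT3 and TPRG1 did not, and 2157 genes in all did, 2008 of them among the 2531. Each value is the log2 change in the input minus that in the IP. A change in the IP also depends on what the antibody pulled down, and its part in these differences was not tested.

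Among the metallothioneins all 5 tested genes lay lower in the input, MT3 by −4.72, MT1X by −2.67, MT1E by −2.17, MT1F by −2.17 and MT2A by −2.15. The near-identical MT1 and MT2 copies may share reads. For MT3 the change was 2.34 in the input, where it did not pass, and 7.06 in the IP.

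Among genes of the endoplasmic reticulum the changes went both ways. EIF2AK3 (1.73), ERO1B (1.10), SEL1L (1.23), DNAJC10 (1.16) and EDEM1 (0.91) rose more in the input, while SDF2L1 (−2.02), CRELD2 (−1.59), ALG12 (−1.56) and HYOU1 (−0.62) had the larger change in the IP. Of the stress and amino acid genes, SLC7A1 (0.88), PSAT1 (1.11), ALDH18A1 (1.07) and MTHFD2 (0.94) were higher in the input and CHAC1 (−1.63), PHGDH (−1.60), PPP1R15A (−0.98), SLC7A5 (−0.84) and CARS (−0.77) higher in the IP.

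Of the HIF targets and glycolytic enzymes CA9 (−1.23), ENO1 (−1.28), GAPDH (−1.27), TPI1 (−0.998) and HMOX1 (−1.19) differed in the same direction, and HIF1A (1.48) in the other. Matrix and growth factor genes with the larger rise in the input were PLOD2 (1.499), HBEGF (1.18) and FN1 (1.12), and SERPINH1 was on the other side (−1.03). Among metal and lysosomal genes, SLC39A10 (1.77), SLC30A1 (1.73), ATP6V1A (1.62), SOD2 (1.36) and ATP2C1 (1.36) were positive, and ATP13A1 (−2.15), XYLT2 (−1.87), CD68 (−1.56) and ATP13A2 (−1.39) negative.

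Of the glial markers GJA1 (2.19) was positive, with a rise in the input and a change of −0.35 in the IP, and GFAP (−1.61) and NES (−0.85) were negative. In the signalling and m6A lists MAP2K4 (1.48), PARP9 (1.60), YTHDC2 (1.19) and YTHDF2 itself (0.78) were positive, and FOSL1 (−1.98), IFI6 (−1.84) and ALKBH5 (−0.70) negative. In the cell cycle lists all 3 were negative, CDT1 by −2.50, CDC20 by −1.03 and E2F1 by −0.96. The remaining genes were HSPA4L (1.71), TPRG1 (1.49), GPX8 (1.16), VPS35 (0.93), CYP51A1 (0.87), HSPH1 (0.85) and CAT (0.73) above 0 and SCAP (−1.43) and SQSTM1 (−0.67) below.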

How the results depend on the processing

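The 195 named genes that passed kept their direction in every alternative that gave them a value (CACNA1G had none with a filter of 1 CPM), and 156 of them also kept their call when each of the 6 input libraries was left out in turn. Of the rest 12 lost it with any input library removed (ABCC1, AKR1C1, DHCR7, FEN1, HSPA4L, ICAM1, IDI1, IL18, MAP3K9, NDUFB5, NDUFB8 and NFIA). Those that lost it in 5 of the 6 removals were ALKBH5, BAG3, CDC20, CDT1, CHAF1A, CHI3L1, EPHX1, FOSL1, HSPB8, MAFG, OAS1, RPL4, TFRC, TRAF1 and VPS13C. Total counts cost 34 of the 195 calls, TPM 39, no filter 14, size factors of the DESeq2 type 8, limma voom 3, and DESeq2 and the 6 input libraries alone none. Calls over all genes numbered 3742 with total counts (2621 lower), 4266 with the 6 input libraries alone (1866 lower) and 3524 with log2(TPM + 1) (1076 higher, 2448 lower). The lower count was 871 with a filter of 1 CPM and 1129 with DESeq2. Leaving out 1 library gave 1500 to 3213 calls, 1213 to 2149 higher and 286 to 1064 lower. Deviations of same-numbered control and manganese inputs correlated at −0.095, 0.040 and −0.149, and those of other numbers at −0.082 to 0.134. The replicate numbers thus gave no sign of pairing control with manganese inputs, but with 3 libraries a group such values cannot exclude it. Input and IP libraries of one number were taken to come from one lysate, but their deviations correlated at only −0.00065 to 0.066. With that assumed lysate as a replicate block 2157 genes differed between the input and IP changes, against 2531 without it. With a replicate block 1367 genes were higher and 303 lower, 28 of the 195 calls were lost, and with the block on the 6 input libraries alone 1260 genes were lower.

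Genes that turned direction had not passed in the test reported. Under total counts these were ATP6V1H (−0.29), IL6 (−0.16), JUN (−0.0379), LARS (−0.33), SERP1 (−0.29), SOD2 (−0.12) and VIM (−0.12), and under log2(TPM + 1) the same 7 at −0.44, −0.19, −0.0705, −0.55, −0.34, −0.0935 and −0.14, with HERPUD1 at −0.0030, and there ATP6V1H (adjusted p = 0.0391) and LARS (adjusted p = 0.0192) passed as lower in limma's test. HERPUD1 turned with limma voom (−0.34). With 1 library left out HERPUD1 ranged from −0.0192 (without manganese input replicate 1) to 1.23, ATP6V1H from −0.0012 (without manganese input replicate 2) to 0.19, and ATP6V0D1 from −0.78 to 0.30 (positive without control input replicate 2 or manganese input replicate 3). The medians of 12 of 38 lists changed sign under total counts and 10 under TPM. The scaling moves all genes together, the cause of the other shifts was not tested, and genes of few counts could show only large changes.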
